A study of Mus musculus with 2 samples.

Results

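The gene group examined here holds 9 genes that set the entry of a cell into the division cycle. It comprises the D-type cyclins Ccnd1, Ccnd2 and Ccnd3, the kinases Cdk4 and Cdk6 that they activate, and the CDK inhibitors Cdkn1a, Cdkn1b, Cdkn1c and Cdkn2c. They were taken by symbol from the 31057 genes of the tables, and each symbol stood for 1 gene. Whole ovaries of CD1 mice, an outbred stock, at postnatal day 2 had been dissociated and captured as 2 single-cell libraries, each pooled from 6 ovaries of 3 pups. All mice were untreated and of the same age, so the only groups are cell classes within the 2 libraries. The classes were set by marker genes, the same in both libraries. Granulosa-gated cells carried, above a minimum count, Foxl2, Fst or Wnt6, interstitial-gated cells Col1a2 or Dcn, mesothelial-gated cells Upk3b and germ-gated cells Ddx4, Dazl or Ooep. Each class was further split into cells with and without a unique molecular identifier (UMI, 1 captured molecule) of Mki67 or Top2a, 2 genes transcribed mainly in dividing cells. The comparison asks how the cell cycle entry genes of granulosa cells, which stop dividing around primordial follicles, differ from those of the dividing stroma.

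D-type cyclins bind Cdk4 and Cdk6, and the active kinases phosphorylate the retinoblastoma protein, which then releases E2F factors that drive genes of DNA synthesis. Cdkn2c belongs to the inhibitors that bind Cdk4 and Cdk6 and keep them from the cyclins. Cdkn1a, Cdkn1b and Cdkn1c belong to the Cip/Kip family, which chiefly inhibits the kinases acting later in the cycle. In the ovary, mice without Cdkn1b are known for premature activation of primordial follicles, and mice without Ccnd2 for granulosa cells that fail to proliferate.

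On GRCm38 the cyclin and kinase genes lie as Ccnd1 at chr7:144929931-144939925, Ccnd2 at chr6:127125162-127152193, Ccnd3 at chr17:47505051-47599691, Cdk4 at chr10:127063534-127067920 and Cdk6 at chr5:3341485-3531008. The inhibitor genes lie as Cdkn1a at chr17:29090976-29100727, Cdkn1b at chr6:134920401-134925513, Cdkn1c at chr7:143458339-143461050 and Cdkn2c at chr4:109660876-109667189. RefSeq promoter windows (GRCm38.p6, 250 bases before to 50 bases after a start site) were at hand for 6 of the 9 genes, 9 windows in all. Those of Cdkn1b and Cdkn2c are shown because these inhibitors differed between granulosa-gated and interstitial-gated cells in opposite directions. Cdkn2c has 2 windows, and the one that holds the searched motif is printed. Capitals mark the GC box, searched as GGGCGG on both strands. The Cdkn1b window lies at chr6:134920151-134920450 on the plus strand and holds 1 match, and the printed Cdkn2c window at chr4:109666707-109667006 on the minus strand holds 4 matches. The other Cdkn2c window, at chr4:109665323-109665622, holds 0 matches.
Cdkn1b: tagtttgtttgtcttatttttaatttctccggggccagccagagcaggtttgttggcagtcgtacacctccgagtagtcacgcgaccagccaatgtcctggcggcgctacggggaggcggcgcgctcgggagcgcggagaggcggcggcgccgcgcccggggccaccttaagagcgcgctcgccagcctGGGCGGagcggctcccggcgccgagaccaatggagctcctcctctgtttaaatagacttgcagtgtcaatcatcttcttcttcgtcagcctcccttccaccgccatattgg
Cdkn2c: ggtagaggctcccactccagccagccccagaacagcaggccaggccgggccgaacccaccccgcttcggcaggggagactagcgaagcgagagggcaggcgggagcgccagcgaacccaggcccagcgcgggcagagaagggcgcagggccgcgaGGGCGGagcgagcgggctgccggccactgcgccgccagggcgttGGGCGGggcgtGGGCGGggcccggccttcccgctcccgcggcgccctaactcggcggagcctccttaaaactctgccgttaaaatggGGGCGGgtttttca
The GC box was in 35.6% of the 32817 promoter windows of this length. The E2F words TTTCCCGC, TTTCGCGC, TTTGCCGC and TTTGGCGC, also searched on both strands, were in 2.26% of all windows and in 0 of the 9 windows of these genes. A forkhead word, GTAAACA, was in 3.65% of all windows and in 1 of the 9, a window of Ccnd3.

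The libraries held 4094 and 4847 cell barcodes with 54471790 and 59074480 UMIs, and 3642 and 4371 cells remained after filters on quality and doublets. Of the barcodes, 21 occurred in both libraries. In replicates 1 and 2, the gates took 1631 and 565 granulosa-gated, 1104 and 1799 interstitial-gated, 10 and 29 mesothelial-gated and 230 and 581 germ-gated cells. A further 503 and 1115 cells passed several gates and 164 and 282 cells passed none, and both were left out. Median UMIs per cell were 9803 and 9508 in granulosa-gated, 6304.5 and 4685 in interstitial-gated and 77223.5 and 42793 in germ-gated cells. Markers that the gates did not use separated granulosa-gated from interstitial-gated cells. The summed level of Kitl, Inha, Amh, Amhr2, Esr2 and Nr5a2 was 1736 and 1533 CPM (UMIs per 1000000 UMIs of the class) in granulosa-gated against 45.6 and 49.6 CPM in interstitial-gated cells, and that of Pdgfra, Col3a1, Lum, Tcf21 and Nr2f2 was 4182 and 3564 CPM in interstitial-gated against 126 and 175 CPM in granulosa-gated cells. Haemoglobin and Alas2 transcripts summed to 142 and 963 CPM in granulosa-gated and 29.5 and 1971 CPM in interstitial-gated cells, so replicate 2 carried more red cell RNA, and its part in the results was not tested. The mesothelial gate was small. After these counts were seen, a second gating was added that gives a cell with several somatic markers to the class of its leading marker (leading somatic gate), with 138 and 195 mesothelial-gated cells. Most of these had passed several gates, and their marker sums are not given here. Under the first gate, mesothelial-gated cells held 494 and 707 CPM of the granulosa markers listed above and 798 and 601 CPM of the interstitial ones. The mesothelial markers Krt7, Krt8, Krt18, Krt19, Upk1b and Msln stood at 3981 and 2631 CPM in them.

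Levels of the 9 genes are given as CPM of the summed UMIs of a class, scaled by TMM normalization, in replicate 1 and replicate 2. Of the D-type cyclins, Ccnd2 stood at 928 and 1014 CPM in granulosa-gated (971 ± 61.4, SD, n = 2), 464 and 436 CPM in interstitial-gated, 617 and 404 CPM in mesothelial-gated and 5.60 and 9.31 CPM in germ-gated cells. Both granulosa values lay above both values of each other class, whereas the interstitial values lay within the mesothelial range. Ccnd3 was highest in interstitial-gated cells, at 338 and 315 CPM. It was at 173 and 166 CPM in granulosa-gated cells, 137 and 161 CPM in mesothelial-gated cells and 58.0 and 47.5 CPM in germ-gated cells. Ccnd1 was at 49.0 and 64.3 CPM in mesothelial-gated, 10.7 and 7.28 CPM in interstitial-gated and 1.67 and 1.27 CPM in germ-gated cells. In granulosa-gated cells its replicates stood apart, at 6.99 and 37.8 CPM (22.4 ± 21.8, SD, n = 2). The summed mesothelial check markers (Krt7, Krt8, Krt18, Krt19, Upk1b, Msln) in the same cells were at 180 CPM in replicate 1 and 406 CPM in replicate 2, and their part in the Ccnd1 level was not tested.

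Of the kinases, Cdk4 did not separate granulosa-gated from interstitial-gated cells. It was at 436 and 479 CPM in granulosa-gated, 510 and 432 CPM in interstitial-gated and 676 and 611 CPM in mesothelial-gated cells, against 28.0 and 28.4 CPM in germ-gated cells. The granulosa and interstitial values overlapped. Cdk6 was at 94.7 and 115 CPM in granulosa-gated and 54.8 and 60.7 CPM in interstitial-gated cells. Its mesothelial values of 39.2 and 50.5 CPM lay just below the interstitial ones, and germ-gated cells had 1.01 and 1.88 CPM.

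The inhibitors divided the classes. Cdkn1b was at 89.3 and 119 CPM in granulosa-gated cells (104 ± 21.0, SD, n = 2), above 11.0 and 18.0 CPM in interstitial-gated and 18.7 and 19.7 CPM in germ-gated cells. The small mesothelial sums held 0 and 36.7 CPM of Cdkn1b. Cdkn1c, an imprinted gene, was at 271 and 271 CPM in interstitial-gated cells and 46.1 and 41.7 CPM in granulosa-gated cells. Mesothelial-gated cells had 402 and 170 CPM of Cdkn1c and germ-gated cells 68.2 and 101 CPM. Cdkn2c was at 68.0 and 51.3 CPM in interstitial-gated, 29.4 and 45.9 CPM in mesothelial-gated, 6.37 and 8.91 CPM in granulosa-gated and 1.73 and 1.79 CPM in germ-gated cells. The mesothelial sums rested on 10 and 29 cells. Under this gate Cdkn2c did not pass between interstitial-gated and mesothelial-gated cells. Cdkn1a, a target of p53, did not order the classes. It was at 29.2 and 27.6 CPM in granulosa-gated, 43.4 and 15.0 CPM in interstitial-gated, 147 and 32.2 CPM in mesothelial-gated and 14.7 and 21.1 CPM in germ-gated cells, and the granulosa values fell between those of the 2 interstitial sums.

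**Figure D1:**
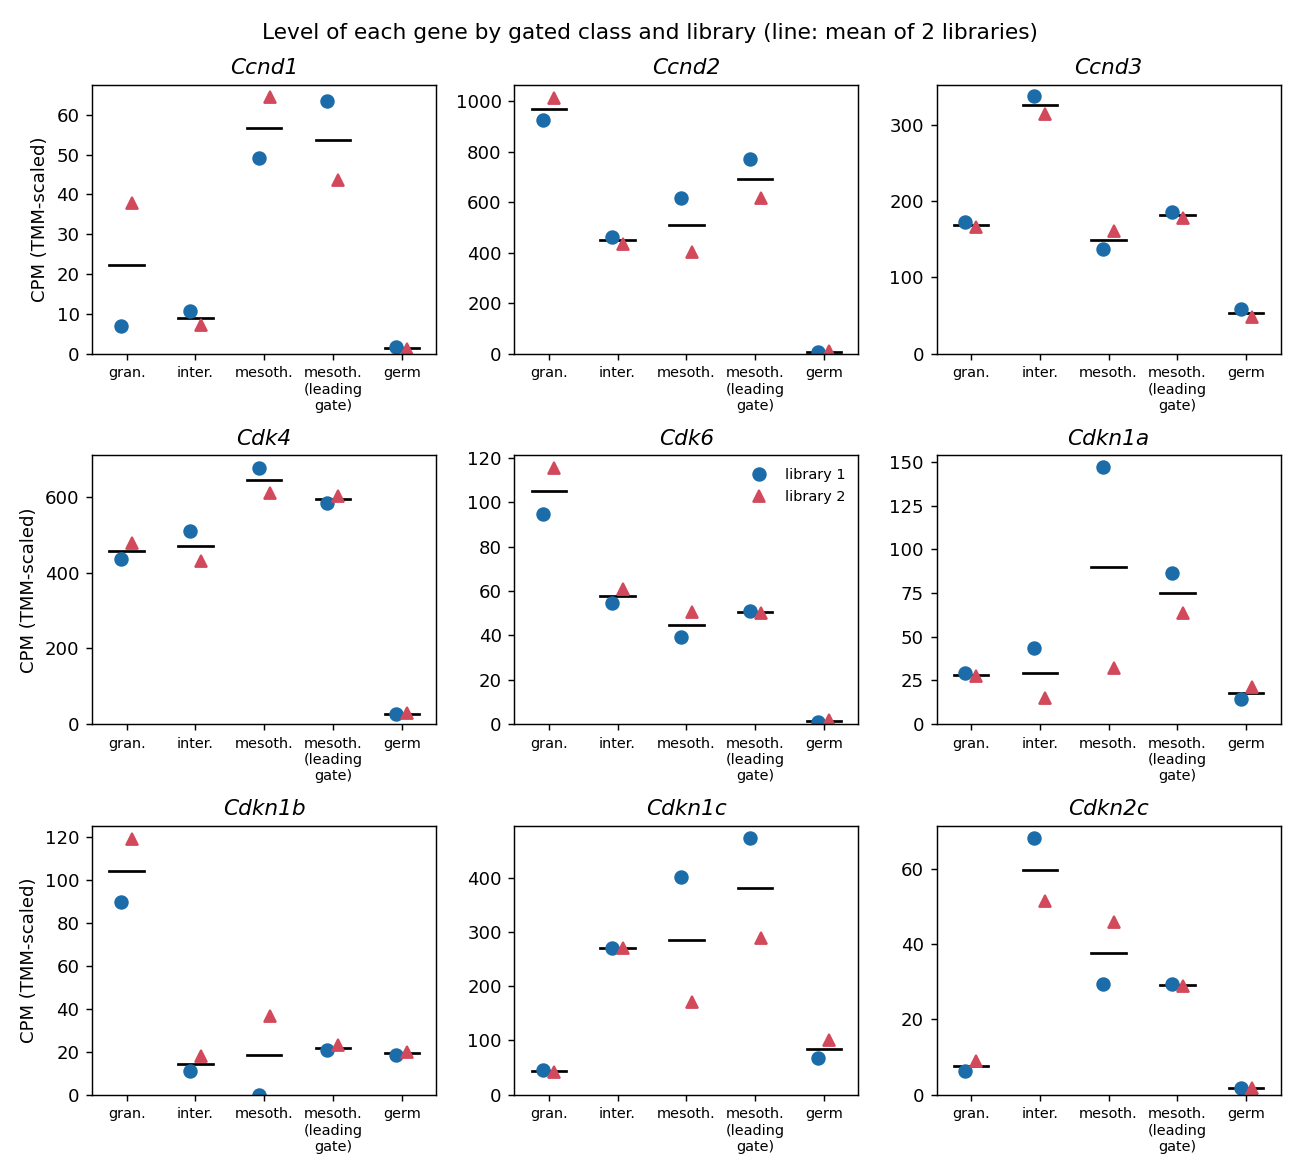
Level of each gene in CPM (vertical axis, linear from 0) in granulosa-gated, interstitial-gated, mesothelial-gated and germ-gated cells, with mesothelial-gated cells also shown under the leading somatic gate. Circles are replicate 1 (library 1), triangles replicate 2 (library 2) and lines their mean (n = 2). Cdkn1b is highest in granulosa-gated cells, Cdkn1c and Cdkn2c are higher in interstitial-gated than in granulosa-gated cells, and the Ccnd1 values of granulosa-gated cells stand apart at 6.99 and 37.8 CPM.

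Granulosa-gated cells had more Cdkn1b, Ccnd2 and Cdk6 and less Cdkn2c, Cdkn1c and Ccnd3 than interstitial-gated cells. With edgeR's quasi-likelihood test and Benjamini-Hochberg adjustment over 14614 genes, 6 of the 9 genes passed an adjusted p of 0.05, 3 higher and 3 lower. Of all genes tested, 41.9% passed, 22.0% higher and 19.9% lower, so the classes differed broadly. Cdkn1b was 7.08-fold higher (log2 fold change 2.82 ± 0.28, SE; adjusted p = 4.0e-06). Ccnd2 was 2.16-fold higher (1.11 ± 0.21; adjusted p = 0.0011) and Cdk6 1.81-fold higher (0.86 ± 0.19; adjusted p = 0.0027). In the other direction, Cdkn2c stood at 0.125 times the interstitial level (-3.00 ± 0.23; adjusted p = 6.3e-07), Cdkn1c at 0.162 times (-2.62 ± 0.26; adjusted p = 5.2e-06) and Ccnd3 at 0.519 times (-0.95 ± 0.16; adjusted p = 0.00034). These 6 differences had the same direction in both replicates, which a call on the same 2 libraries already favours. Cdk4 (adjusted p = 0.85), Cdkn1a (adjusted p = 0.98) and Ccnd1 (adjusted p = 0.090) did not pass. With the library as a block Ccnd1 passed (adjusted p = 0.019), but its difference was 2.25 without replicate 1 and -0.59 without replicate 2. Under a leading gate that also places cells with germ markers, likewise added after the counts were seen, Ccnd2 (adjusted p = 0.31) and Cdk6 (adjusted p = 0.24) no longer passed.

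Shares of cells followed the levels for Cdkn1b, Cdkn1c, Cdkn2c and Ccnd2. Shares and levels come from the same UMIs, so the shares are no separate support. Those of Ccnd3 and Cdk6, which also passed, are not listed. To compare cells of unequal depth, each cell was thinned to 2000 UMIs, which left out 3 and 5 granulosa-gated, 7 and 40 interstitial-gated and 8 and 93 germ-gated cells. A Cdkn1b UMI was found in 15.9% (95% exact binomial interval 14.2 to 17.8) and 18.9% (15.8 to 22.4) of granulosa-gated cells, against 1.91% (1.19 to 2.91) and 3.70% (2.86 to 4.69) of interstitial-gated cells. Without thinning, these shares were 53.9% and 59.1% against 6.79% and 8.73%. A Cdkn1c UMI was found in 7.19% and 8.93% of granulosa-gated and 37.4% and 39.6% of interstitial-gated cells (unthinned 29.2% and 29.0% against 72.6% and 65.6%). For Cdkn2c the shares were 0.553% and 1.43% against 8.75% and 6.08% (unthinned 5.33% and 6.55% against 20.2% and 13.5%). Ccnd2 was carried by 78.4% and 77.0% of granulosa-gated and 55.2% and 51.8% of interstitial-gated cells (unthinned 98.1% and 97.2% against 87.0% and 78.5%). Germ-gated cells, in which Ccnd2 was lowest, carried a Ccnd2 UMI in 1.35% and 2.66% of cells. Their median depths before thinning were 78158 and 52456.5 UMIs against 9809 and 9607.5 UMIs in granulosa-gated cells. Because of this difference in depth, these shares do not measure the background of the somatic classes. No gated class is known to lack Cdkn1b or Cdkn1c. Their lowest shares, in interstitial-gated and granulosa-gated cells respectively, serve as an upper limit of background in those classes only. Intervals cover counting error only.

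Fewer granulosa-gated than interstitial-gated cells carried a Mki67 or Top2a UMI at equal depth. The shares were 6.33% (5.19 to 7.62) and 9.64% (7.33 to 12.4) of granulosa-gated cells and 17.3% (15.1 to 19.7) and 13.3% (11.7 to 15.0) of interstitial-gated cells. Unthinned they were 15.8% and 18.1% against 27.0% and 19.7%. The shares did not overlap between the classes, although in replicate 2 the intervals at equal depth did. With 2 libraries a class, the exact permutation test of the shares at equal depth gave p = 0.333 (two-sided), the smallest it can give. That test ignored that both classes come from the same libraries, and it cannot decide the question. The class comparison was then repeated within each state. Among cells without either UMI, 7 of the 9 genes passed (40.7% of all 13603 genes tested), and among cells with a UMI 6 did (34.7%). Without either UMI, Cdkn1b was at 100 and 135 CPM in granulosa-gated and 10.7 and 14.8 CPM in interstitial-gated cells, a 9.06-fold difference (log2 3.18 ± 0.30; adjusted p = 6.1e-08). Cdkn1c was at 48.9 and 41.9 CPM against 317 and 309 CPM, and Ccnd3 at 185 and 186 CPM against 393 and 361 CPM. Ccnd1 passed in this state alone (1.62 ± 0.57; adjusted p = 0.030), with 7.19 and 45.4 CPM against 9.30 and 7.16 CPM, and without replicate 2 the difference was -0.25. Among cells with a UMI, the Cdkn1b difference was 3.21-fold (1.68 ± 0.32; adjusted p = 0.00036), from 56.5 and 83.8 CPM against 13.2 and 29.6 CPM. Cells thinned before the state was called gave 0.77 (adjusted p = 0.47) for Cdkn1b and 0.97 (adjusted p = 0.074) for Cdk6 in this state, so these calls were lost. Cells without either UMI were deeper in granulosa-gated (median 9281 and 8200 UMIs) than in interstitial-gated cells (5888 and 4378 UMIs). After thinning, the differences in that state were 2.85 for Cdkn1b, -2.73 for Cdkn1c and -3.44 for Cdkn2c (adjusted p = 4.8e-12, 2.4e-13 and 7.1e-08). Ccnd2 differed 3.39-fold among cells with a UMI (1.76 ± 0.24; adjusted p = 9.2e-06) and 1.75-fold among cells without (0.81 ± 0.23; adjusted p = 0.0083). Neither call was kept under the leading gate (adjusted p = 0.12 and 0.40), nor was that of Cdk6 (adjusted p = 0.17 and 0.20).

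**Figure D2:**
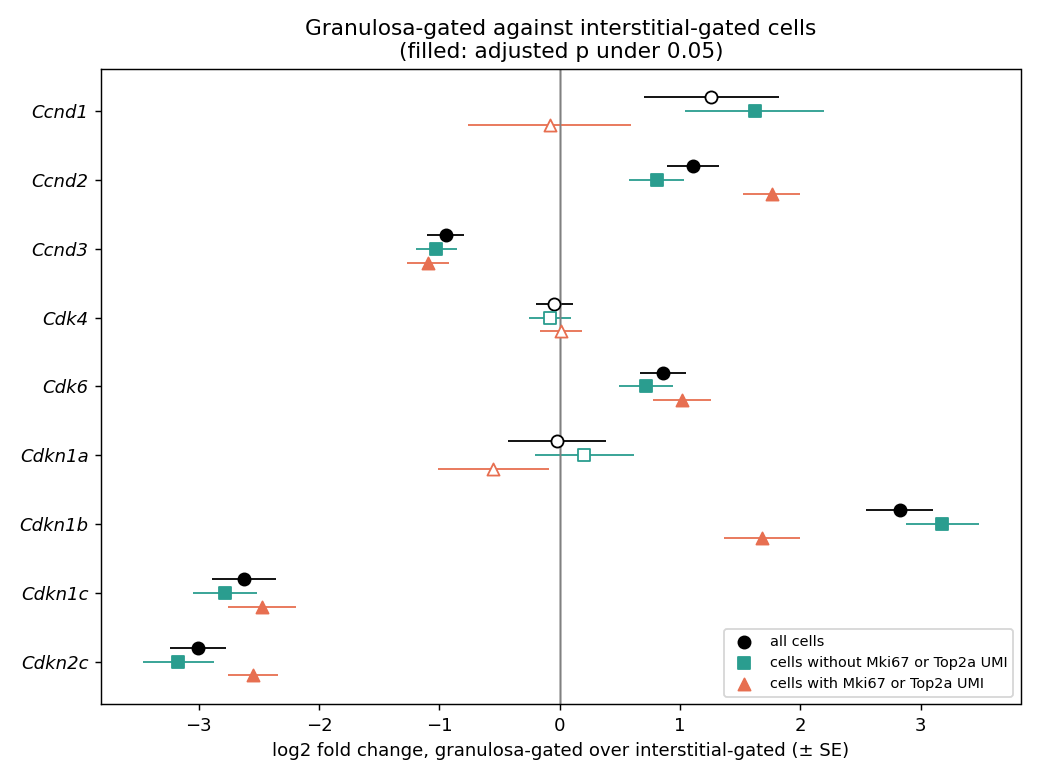
Log2 fold change of each gene in granulosa-gated over interstitial-gated cells (horizontal axis) with its standard error, for all cells, cells without and cells with a Mki67 or Top2a UMI. Filled symbols passed an adjusted p of 0.05 (n = 2 libraries). Cdkn1b stays to the right and Cdkn1c, Cdkn2c and Ccnd3 to the left in all 3 fits, and Cdk4 stays within 0.08 of zero.

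Within a class, Cdkn2c was the gene that went with Mki67 or Top2a. In granulosa-gated cells it was at 25.3 and 33.0 CPM with and 1.15 and 1.56 CPM without a UMI of either gene, a 21.9-fold difference (4.45 ± 0.29; adjusted p = 1.3e-09). The cells without rested on 17 and 8 Cdkn2c UMIs in all. In interstitial-gated cells it was at 173 and 160 CPM with and 12.0 and 11.4 CPM without, a 14.2-fold difference (3.83 ± 0.22; adjusted p = 2.1e-10). Thinned to equal depth before the state was called, 5.83% and 9.26% of granulosa-gated cells with and 0.197% and 0.593% without carried a Cdkn2c UMI. In interstitial-gated cells the same shares were 34.2% and 28.2% with and 3.42% and 2.69% without. Germ-gated cells held 0 Cdkn2c UMIs in 222 cells of replicate 1 at this depth, which allows a share of up to 1.35%, and 0.615% of cells in replicate 2. Cdkn2c is known as a gene that E2F factors activate. Unthinned, these shares were 27.2% and 28.4% with and 1.24% and 1.73% without in granulosa-gated cells, and 58.1% and 48.7% with and 6.20% and 4.78% without in interstitial-gated cells.

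Cdkn2c was the only one of the 9 genes that passed between states in granulosa-gated cells, where 7.19% of all genes passed, 5.35% higher with Mki67 or Top2a. Cdkn1b was at 56.5 and 83.8 CPM with and 100 and 135 CPM without a UMI of either gene, lower in both replicates. It was also lower under the leading somatic gate (-0.86 ± 0.23; adjusted p = 0.031). The difference of -0.77 ± 0.27 under the first gate had an adjusted p of 0.11, and 0.0043 with the library as a block. Of the 9 genes, 0 were called lower in thinned cells, with library size only, with doublets kept or with no cell filter. The leading gate and a log2 fold change beyond 1 also called 0 lower, and the other alternatives with a test 1 or 2. At equal depth, Cdkn1b was in 7.77% (3.41 to 14.7) and 5.56% (1.16 to 15.4) of granulosa-gated cells with and 16.5% (14.6 to 18.4) and 20.4% (16.9 to 24.1) without. Interstitial-gated cells with Mki67 or Top2a carried it in 1.58% and 6.84% of cells, so at this depth the 2 classes overlapped among cells with either UMI. The block also moved Ccnd3 past the threshold (-0.51 ± 0.15; adjusted p = 0.026), with 139 and 122 CPM with and 185 and 186 CPM without, and Cdk4 (0.46 ± 0.16; adjusted p = 0.046), with 558 and 625 CPM with and 409 and 450 CPM without. For these 2 genes the adjusted p without the block was 0.093 and 0.13. Ccnd2 was at 883 and 1147 CPM with and 957 and 1010 CPM without, overlapping between states. Ccnd1, Cdk6, Cdkn1a and Cdkn1c also overlapped between states.

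In interstitial-gated cells 2 of the 9 genes passed between states, against 4.47% of all genes (3.72% higher). Besides Cdkn2c, Ccnd2 was lower in cells with Mki67 or Top2a, at 318 and 280 CPM against 587 and 538 CPM without (0.532 times; -0.91 ± 0.23; adjusted p = 0.026). The share of cells with a Ccnd2 UMI was 37.9% and 26.9% with and 58.8% and 55.6% without at equal depth. Under the leading gate Ccnd2 did not pass (adjusted p = 0.72). Cdkn1c was at 231 and 236 CPM with and 317 and 309 CPM without, and did not pass (adjusted p = 0.46). Ccnd3 was at 291 and 268 CPM with and 393 and 361 CPM without. Cdk4 was at 607 and 567 CPM with and 496 and 414 CPM without. Neither Ccnd3 nor Cdk4 passed, and both differed in the same direction as in granulosa-gated cells. Cdkn1b was at 13.2 and 29.6 CPM with and 10.7 and 14.8 CPM without (adjusted p = 0.31), a difference in the direction opposite to that in granulosa-gated cells.

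The difference between these state differences was tested directly. By edgeR 0 of the 9 genes passed, against 0.0588% of all genes, and 2 had an unadjusted p under 0.05 (Ccnd2 and Cdkn1b). DESeq2 also called 0. For Cdkn1b the state difference was lower by -1.50 ± 0.44 on the log2 scale in granulosa-gated than in interstitial-gated cells (adjusted p = 0.37), and with the library as a block it passed (-1.49 ± 0.32; adjusted p = 0.016). The state difference of Cdkn2c was larger in granulosa-gated cells by 0.62 ± 0.36 and did not pass (adjusted p = 0.86), which does not show that the classes are alike.

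**Figure D3:**
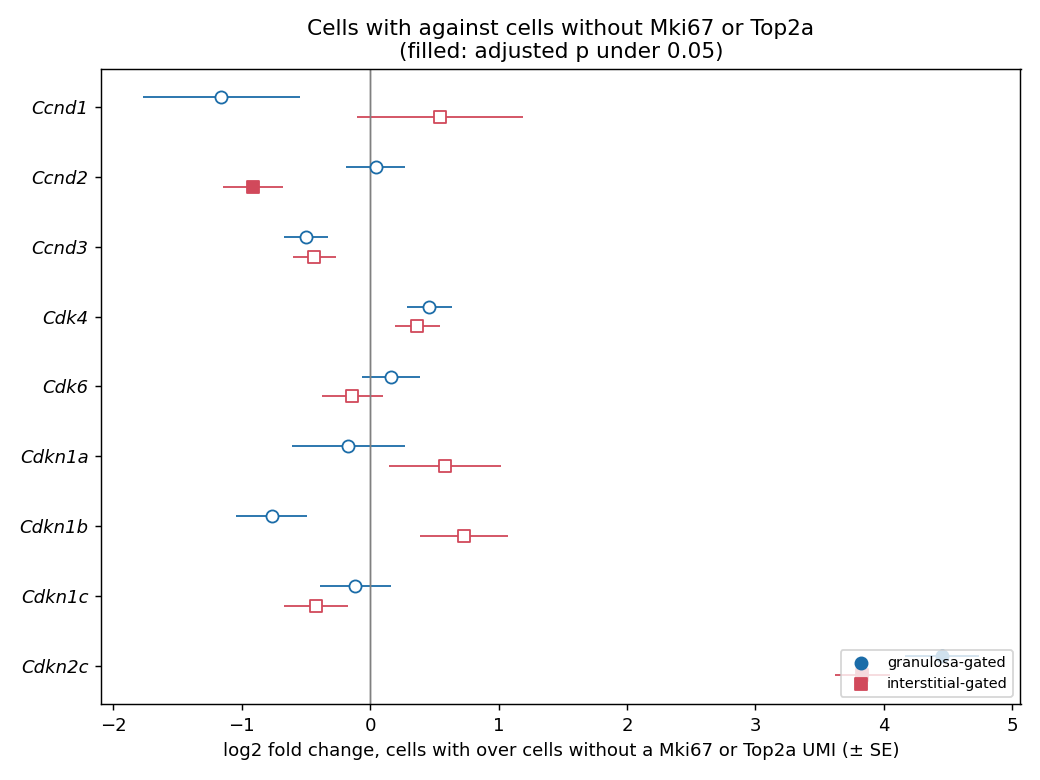
Log2 fold change of each gene in cells with over cells without a Mki67 or Top2a UMI (horizontal axis) with its standard error, in granulosa-gated and interstitial-gated cells. Filled symbols passed an adjusted p of 0.05 (n = 2 libraries). Cdkn2c lies at 4.45 and 3.83, and Cdkn1b lies on opposite sides of zero in the 2 classes without passing in either.

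**Figure D4:**
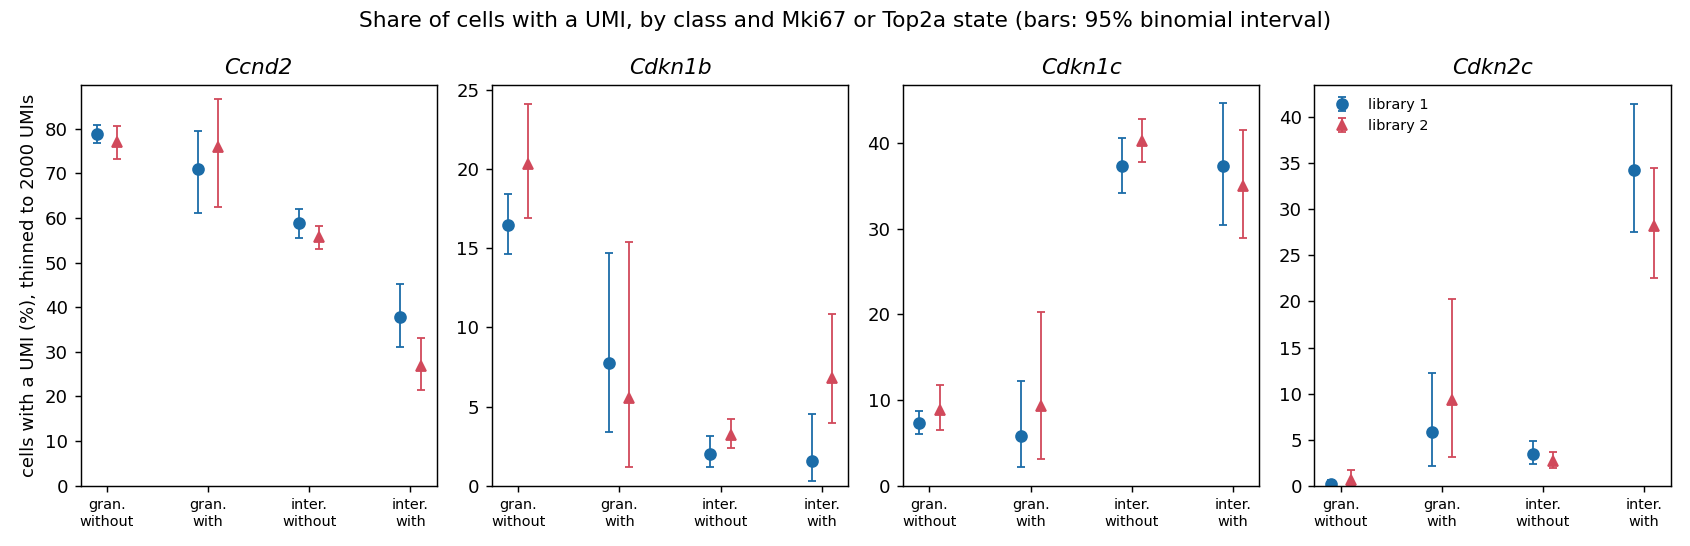
Share of cells with a UMI of Ccnd2, Cdkn1b, Cdkn1c or Cdkn2c (vertical axis, percent, after thinning to 2000 UMIs) in granulosa-gated and interstitial-gated cells without and with a Mki67 or Top2a UMI. Circles are replicate 1, triangles replicate 2, and bars 95% binomial intervals, which cover counting error only. Cdkn1b is highest in granulosa-gated cells without either UMI and Cdkn2c in interstitial-gated cells with one.

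Mesothelial-gated cells were meant to capture the surface epithelium of the ovary. Since the first gate held 10 and 29 cells, they were compared mainly under the leading somatic gate, where most had passed several gates. Under it Ccnd1 was at 63.5 and 43.7 CPM, Ccnd2 at 770 and 617 CPM, Cdkn1a at 86.4 and 63.5 CPM, Cdkn1b at 20.7 and 22.9 CPM, Cdkn1c at 474 and 290 CPM and Cdkn2c at 29.4 and 28.8 CPM. Against them, granulosa-gated cells differed in 6 of the 9 genes (21.5% of all genes), with Cdkn1b 4.28-fold higher (2.10 ± 0.22; adjusted p = 0.00010), Cdk6 1.90-fold higher (adjusted p = 0.0065) and Cdkn1c at 0.154 times the mesothelial level (-2.70 ± 0.27; adjusted p = 7.3e-05). Cdkn2c, Cdkn1a and Cdk4 were the others and were lower. Interstitial-gated cells also differed from mesothelial-gated cells in 6 genes (35.9% of all genes). Ccnd1 stood at 0.153 times (-2.71 ± 0.57; adjusted p = 0.0039) and Cdkn1a at 0.322 times the mesothelial level (adjusted p = 0.010), while Ccnd3 was 1.69-fold and Cdkn2c 2.33-fold higher. Under the first gate, 3 genes passed against granulosa-gated (4.61% of all genes) and 1, Ccnd3, against interstitial-gated cells (9.03%). In mesothelial-gated cells of the leading somatic gate, Cdkn2c was at 53.3 and 47.5 CPM with and 2.02 and 0.885 CPM without Mki67 or Top2a and was the 1 gene that passed (5.12 ± 0.42; adjusted p = 1.5e-06; 1.94% of all genes). The first gate gave 0 genes by edgeR (0.669% of all genes), 3 with an unadjusted p under 0.05 and 1 by DESeq2. Its sums with Mki67 or Top2a held 1 and 10 cells, so the 0 cannot show that the genes do not differ. These sums also entered the shared fit of the states.

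Germ-gated cells, oocytes at this age, had less of their RNA in the D-type cyclins and their kinases than the somatic classes, as CPM of much deeper cells. Granulosa-gated cells exceeded them in 7 of the 9 genes and fell below them in 1, Cdkn1c (0.520 times; -0.94 ± 0.25; adjusted p = 0.0042). Of all genes 76.7% passed, 38.9% higher and 37.8% lower in granulosa-gated cells. Ccnd2 was 129-fold (7.01 ± 0.28; adjusted p = 6.5e-10), Cdk6 70.2-fold and Cdk4 16.2-fold higher in granulosa-gated cells. Under the leading somatic gate Cdkn1c did not pass against germ-gated cells (adjusted p = 0.066). Interstitial-gated cells exceeded germ-gated cells in 7 genes, with Cdkn2c 33.6-fold and Cdkn1c 3.21-fold higher. Of all genes 75.6% passed in this comparison, 36.6% of all being higher in interstitial-gated cells. Cdkn1b did not pass between them (adjusted p = 0.21), at 11.0 and 18.0 CPM against 18.7 and 19.7 CPM. Mesothelial-gated cells exceeded germ-gated cells in 7 genes, or in 8 under the leading somatic gate, where Cdkn1a was also higher. Of all genes, 35.5% passed under the first gate (16.5% higher) and 71.6% under the leading somatic gate (33.5% higher). All 3 comparisons share the germ-gated sums. Germ-gated cells were the deepest, and their share with a Mki67 or Top2a UMI differed with depth, with 81.3% and 53.0% of cells carrying one unthinned and 7.21% and 6.56% at equal depth.

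Other genes of the pathway and of cell division set these values in context. Of all genes tested, 22.0% were higher and 19.9% lower in granulosa-gated than in interstitial-gated cells. Of 20 further genes between the inhibitors and E2F (the RB pathway list), 3 were higher and 9 lower. Their median log2 fold change was -0.44 against 0.01 for all genes. Higher were Rb1, the retinoblastoma gene, at 21.6 and 13.8 CPM against 3.27 and 5.41 CPM (2.03 ± 0.31; adjusted p = 0.00025), its relative Rbl2 (1.18 ± 0.26; adjusted p = 0.0026) and the inhibitor Cdkn2b (2.97 ± 0.74; adjusted p = 0.0061). Cdkn2b rested on 1.10 and 0.862 CPM against 0.136 and 0.104 CPM. The largest drops were in Ccne1 (-2.15 ± 0.35) and Ccne2 (-2.03 ± 0.30), the cyclins that follow the D-type cyclins, E2f7 (-1.61 ± 0.37) and Cdkn2a (-1.39 ± 0.42). Cdkn2a rested on 0.731 and 0.862 CPM in granulosa-gated and 1.22 and 2.70 CPM in interstitial-gated cells. In germ-gated cells Cdkn2a was at 85.5 and 83.5 CPM. Ccne1 was at 5.74 and 4.60 CPM in granulosa-gated and 33.2 and 14.1 CPM in interstitial-gated cells. Of 20 genes of DNA replication and mitosis (the proliferation list), 19 were lower and the other, Ube2c, did not pass (median -1.39). Mcm5, a subunit of the replicative helicase, was at 19.5 and 18.2 CPM against 111 and 76.2 CPM (-2.30 ± 0.20; adjusted p = 1.6e-06), and Rrm2, which makes deoxynucleotides, at 25.3 and 20.4 CPM against 112 and 80.7 CPM (-2.06 ± 0.20; adjusted p = 3.4e-06).

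The same lists also differed between states. Neither holds Mki67 or Top2a, which set the state. Both are genes of dividing cells, so higher division genes beside them follow from how the state was set and are no separate support. With Mki67 or Top2a, 14 of the 20 RB pathway genes were higher in granulosa-gated and 11 in interstitial-gated cells, and 0 lower. E2f8 (6.10 ± 0.54 and 5.27 ± 0.47) and E2f7 (4.57 ± 0.53 and 5.16 ± 0.51), E2F family repressors, led in both. All 20 proliferation genes were higher with Mki67 or Top2a in granulosa-gated cells and 17 in interstitial-gated cells. Of all genes, 5.35% were higher with Mki67 or Top2a in granulosa-gated and 3.72% in interstitial-gated cells. Among cells without either UMI, 14 proliferation genes were lower in granulosa-gated than in interstitial-gated cells, Rrm2 by the most (-3.09 ± 0.23; adjusted p = 4.3e-09), and among cells with a UMI 15 were. Of all genes tested, 21.1% were lower among cells without and 16.8% among cells with a UMI. Cells without either UMI had medians of 9281 and 8200 UMIs in granulosa-gated against 5888 and 4378 UMIs in interstitial-gated cells. The state was called at these unequal depths, and the list counts were not repeated at equal depth. Rb1 was higher in granulosa-gated cells in both states (2.19 ± 0.36 and 1.93 ± 0.38). The difference between state differences, also with the state called at unequal depth, passed for 1 of the 20 proliferation genes, Rrm2 (1.68 ± 0.29; adjusted p = 0.042). Between granulosa-gated and germ-gated cells, the inhibitor Cdkn2a was the most different RB pathway gene, at 0.731 and 0.862 CPM against 85.5 and 83.5 CPM (-6.76 ± 0.31; adjusted p = 3.3e-09).

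**Figure D5:**
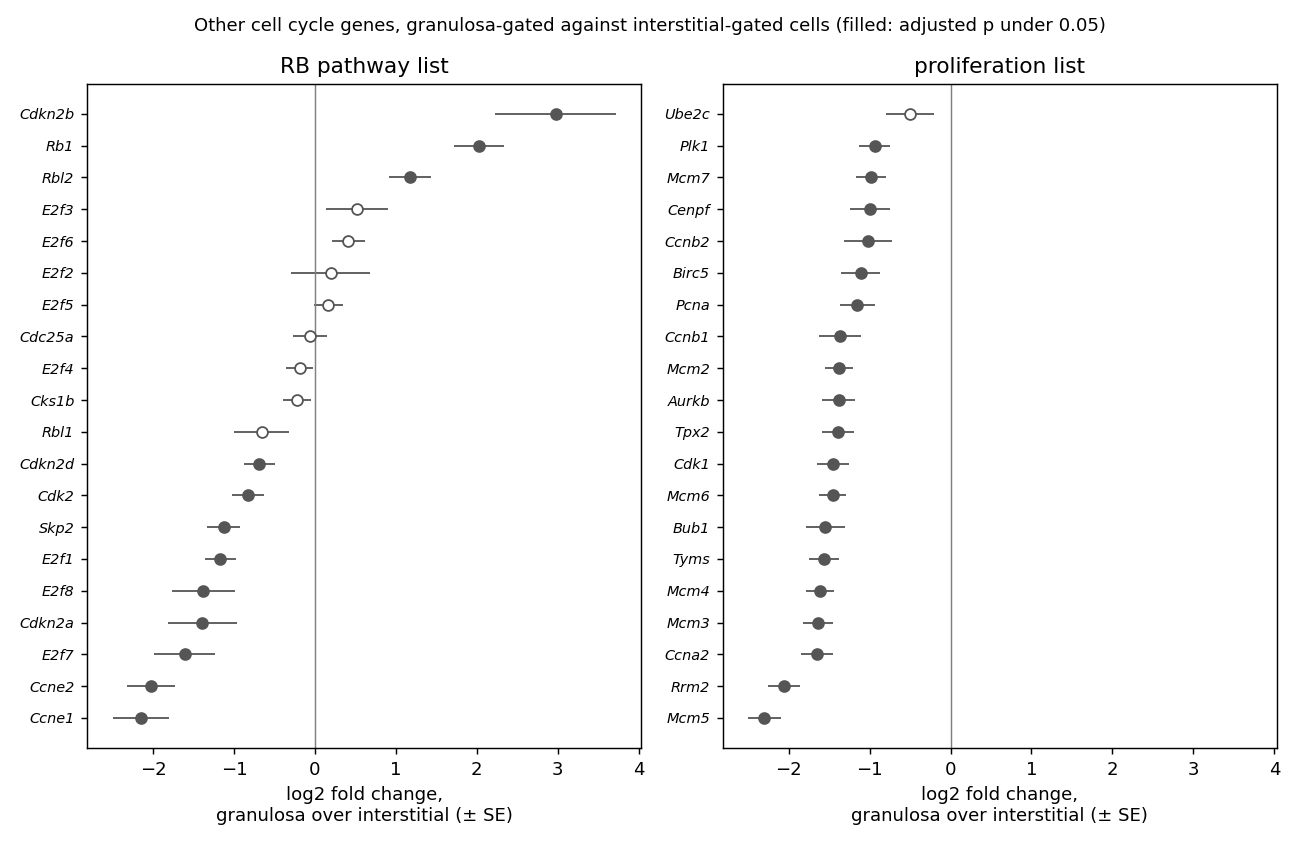
Log2 fold change in granulosa-gated over interstitial-gated cells (horizontal axis) with its standard error for the 20 genes of the RB pathway list (left) and the 20 genes of the proliferation list (right). Filled symbols passed an adjusted p of 0.05 (n = 2 libraries). Cdkn2b, Rb1 and Rbl2 are filled to the right of zero, and all proliferation genes but Ube2c are filled to the left.

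Across the 16 sums of class, state and library, the genes most like each member were listed by Pearson correlation of log2(CPM + 1) over 13603 genes. The sums share libraries, and most of the variation is between germ-gated and somatic classes, so the values are a description. The sum of mesothelial-gated cells with Mki67 or Top2a in replicate 1 held 1 cell. Cdkn2c was most like Lmnb1 (r = 0.95) and Pclaf (r = 0.95), a lamin gene and a gene of DNA replication. Cdkn1b was most like Arhgap42 and Fhl1 (r = 0.94 each), Cdkn1c like Spop (r = 0.92) and Fbln1 (r = 0.86), and Cdkn1a like Gm33321 (r = 0.82) and BC005537 (r = 0.81). For the cyclins these were Hebp2 (r = 0.96) and Igsf9 (r = 0.95) for Ccnd1, Sox4 and Slc38a2 (r = 0.99 each) for Ccnd2, and Gnas (r = 0.99) and P3h1 (r = 0.98) for Ccnd3. For the kinases they were Timp1 and Txn1 (r = 0.99 each) for Cdk4, and Irf2 and Tgfb1i1 (r = 0.99 each) for Cdk6. Under the leading somatic gate, other genes were most like every member. Cdkn2c was then most like Sae1 and Neurl1b (r = 0.97 each), so the genes named here depend on the gating.

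Granulosa-gated cells were also split by a UMI of Amh, a hormone of granulosa cells in growing follicles, as levels with no test. In this split values are CPM of the class without TMM scaling. The 638 and 100 cells with Amh had 68.5 and 85.6 CPM of Cdkn1b, and the 993 and 465 cells without it had 105 and 125 CPM. Cdkn2c was at 10.1 and 17.0 CPM with and 3.23 and 6.31 CPM without Amh. Cdkn1a was at 17.0 and 6.92 CPM with and 38.9 and 32.6 CPM without. Cdk4 was at 488 and 563 CPM with and 387 and 440 CPM without. For these 4 genes and for Ccnd1 the values with and without Amh did not overlap. How many of all genes separate in this way was not counted, and depth was not equalized for the split, so this is a description. Ccnd2, Ccnd3, Cdk6 and Cdkn1c are not listed for this split, so the listed genes do not stand for the whole group. Ccnd1 was at 4.23 and 7.55 CPM with and 9.20 and 45.3 CPM without Amh, so the high Ccnd1 of replicate 2 was in cells without Amh.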

How the data were processed

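Single-cell RNA sequencing (10x Genomics 3′ capture) of whole ovaries in 2 replicate libraries was analysed. The count tables deposited by the authors hold raw UMI counts per gene and barcode, and the submitters' processing notes name Cell Ranger 3.0.2 and the GRCm38 build. The labels and the methods name different chemistry versions, so none is given here. Gene-level counts collapse transcripts, and reads shared by near-identical genes are not resolved.

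Cells with under 500 genes or over 10% mitochondrial UMIs were removed (356 and 383 barcodes), as were doublets called by scrublet in scanpy 1.11.5 (96 and 93, with the threshold of replicate 1 used for both). Granulosa, mesothelial and germ gates needed 2 UMIs of their markers and 1 per 10000 UMIs of the cell, and the interstitial gate 5 UMIs and 5 per 10000. Cells with several gates were left out. UMIs were summed per library and class, or per library, class and state, and tested with edgeR 4.0.16 (filterByExpr, TMM, quasi-likelihood) in R 4.3.3 with Benjamini-Hochberg adjustment over all genes tested. The sums of all 4 classes entered 1 fit. Calls needed an adjusted p under 0.05. Each replicate was 1 litter, so p-values measure the spread between 2 libraries. Classes of 1 library come from the same animals, and deviations from class means correlated at 0.055 to 0.286 between classes over 14614 genes, so fits with the library as a block were also made.

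The alternatives were DESeq2 1.42.0, scaling by library size only, no filter on low counts, the library block, stricter gates, leaving out cells with markers of other types, keeping doublets, no cell filter, thinning to 2000 UMIs, a log2 fold change beyond 1, 2 UMIs for the state and leaving out a library. The members, the gene lists and the rule for naming genes (all members, and up to 4 called genes a list and direction by size of fold change) were chosen with earlier results of these data known. Simulated counts, drawn with the same spread for all genes and no library effect, were also run through the fits. Their outcome is not given here and lends the results no support.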

Additional observations from a re-analysis of the deposited data

Results flagged for a closer look

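The state difference (cells with against cells without a Mki67 or Top2a UMI) ran in opposite directions in granulosa-gated and interstitial-gated cells of both libraries for 2 genes. The share of all genes that meet this rule was not counted. In granulosa-gated cells of replicate 1, Ccnd1 hardly differed, at 6.74 CPM with and 7.19 CPM without. For Ccnd1 the difference between the classes was -1.70 ± 0.89 on the log2 scale (edgeR quasi-likelihood, adjusted p = 0.81), and for Cdkn1b it was -1.50 ± 0.44 (adjusted p = 0.37), so neither passed over all genes. Ccnd1 in cells that passed no gate, which enter no comparison, stood at 171 and 76.1 CPM in replicates 1 and 2, above the level in each gated class of the same library. No class has 4 or more libraries, so single libraries were not screened for values far from the others.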

How the results depend on the processing

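The 71 fold changes followed gave 877 values under alternatives with a test. Of these, 770 kept their direction and side of the threshold, 30 no longer passed, 72 newly passed and 5 reversed. The reversals all involved the small mesothelial gate. Thinned, Cdk4 was 0.091 (granulosa-gated) and 0.059 (interstitial-gated) over mesothelial-gated cells, and Cdkn2c was -0.083 and Ccnd2 0.20 between interstitial-gated and mesothelial-gated cells, and Ccnd2 was 0.14 there without cells holding markers of other types. The cause was not tested.

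Counts of genes called moved by over 1.5 times in the comparisons below. Granulosa-gated against mesothelial-gated cells gave 5 under DESeq2, 7 with no filter, 5 with the library block, 1 thinned and 6 under the leading somatic gate. Interstitial-gated against mesothelial-gated cells gave 2 under DESeq2, library size only and the block, 3 with no filter, 0 thinned (3 at an unadjusted p under 0.05), 4 under the leading gate and 6 under the leading somatic gate. Between states, granulosa-gated cells gave 3 under DESeq2, no filter, the stricter gate and the leading somatic gate, 4 with the block and with 2 UMIs, and 2 without cells holding markers of other types. Interstitial-gated cells gave 1 under the leading gate and with a log2 fold change beyond 1. Mesothelial-gated cells gave 1 under DESeq2, library size only, no filter, the block, doublets kept, both leading gates and 2 UMIs. The difference between state differences gave 2 with no filter, 1 with the block and 1 with 2 UMIs.

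With 1 library left out there are no residual degrees of freedom, so those are values without a test. Of 142 such values, 4 reversed. A further 95 lay closer to the full fit than the SD of the values with either library left out. That limit widens as the libraries move apart, so this count cannot show stability. Ccnd1 ranged from -0.59 to 2.25 between granulosa-gated and interstitial-gated cells and from -0.25 to 2.60 among cells without Mki67 or Top2a, Ccnd2 from -0.43 to 0.30 between interstitial-gated and mesothelial-gated cells, and Cdkn1a from -0.52 to 1.49 between interstitial-gated and germ-gated cells. Depth set the shares, and 155 of 162 lay outside the thinned interval when unthinned. With the block, Cdkn1a also passed against germ-gated cells in granulosa-gated (adjusted p = 0.028) and interstitial-gated cells (adjusted p = 0.044), and Ccnd2 between states in mesothelial-gated cells (adjusted p = 0.0096). In the stricter gate, replicate 1 held no mesothelial-gated cell with Mki67 or Top2a, and that sum was left out. Neither leading gate was planned, and both were added after the data were seen.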

Other observations

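The cells that passed no gate carried RNA of cell types that the gates do not cover. Their summed endothelial markers (Cdh5, Pecam1, Kdr, Egfl7) stood at 1576 and 629 CPM, immune markers (Ptprc, Tyrobp, Fcer1g, Cd52) at 1015 and 1835 CPM and perivascular markers (Rgs5, Cspg4, Notch3) at 478 and 381 CPM. Erythroid markers (haemoglobin genes and Alas2) stood at 37.4 and 3767 CPM, the highest of these sums in replicate 2. Gate markers were present below the thresholds, those of the interstitial gate at 89.8 and 227 CPM. In these 164 and 282 cells, Cdkn1a was at 99.3 and 101 CPM, Ccnd2 at 267 and 285 CPM, Cdkn1b at 15.0 and 38.1 CPM, Cdkn1c at 95.9 and 82.2 CPM and Cdkn2c at 49.0 and 46.7 CPM. The 503 and 1115 cells that passed several gates had 312 and 206 CPM of Cdkn1c, 24.1 and 34.0 CPM of Cdkn1b, 62.8 and 31.8 CPM of Cdkn2c and 28.7 and 15.6 CPM of Ccnd1. These are levels of mixed cells, with no test and without TMM scaling.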
